A study of Mus musculus with 36 samples.

Results

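Odorant receptor genes of mouse chromosome 9 were followed in 36 RNA-seq libraries of olfactory tissue. The set held the 130 genes with an Olfr symbol and no pseudogene suffix whose locus lies on chromosome 9 (mm9), out of 1105 such Olfr genes in the tables; Olfr910 and Olfr912, on the same chromosome, were set aside and serve below only as neighbours. Adult C57BL/6 mice of 6 months of age had been weaned at 3 weeks and kept at 4 mice per cage, with no transgene, drug or deletion named in the labels for any group. They were kept as females without males (SF), males without females (SM), or in cages that held both sexes, from which females (CF) and males (CM) were taken. The paper states that SF and SM cages stood in same-sex rooms, and that pups born in the combined cages were euthanized soon after birth. Housing therefore cannot be told apart from room, mating and litters here. The main olfactory epithelium (MOE), the vomeronasal organ (VNO) and the olfactory bulb (OB) were each profiled in 3 libraries per group, 12 libraries per tissue. The paper states that all 3 tissues were taken from each mouse, so libraries of different tissues can share mice. Each library was made from the pooled RNA of several mice, and the sources differ on how many went into a pool. No mouse can be followed within a pool, and p-values below measure the spread between these libraries.

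Odorant receptors are G protein-coupled receptors that sit in the cilia of olfactory sensory neurons and bind volatile odorants. Each mature neuron of the MOE transcribes a single receptor gene from a single allele, so in bulk tissue the RNA level of a receptor depends both on how many neurons chose it and on how much RNA each of them holds, and these cannot be told apart here. The genes stand in tandem clusters formed by duplication, and their whole coding sequence usually lies in a single exon. Signalling from the receptor runs through the G protein subunit encoded by Gnal, adenylyl cyclase (Adcy3) and a cyclic nucleotide-gated channel (Cnga2), and Omp marks mature neurons. VNO neurons use other receptor families and the channel Trpc2, and the OB holds the axon terminals of MOE neurons but not their cell bodies.

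Levels were given as FPKM, fragments per kilobase of gene model with library size divided out, and are thus set per length. Several markers separated the tissues, though not all of those listed did. Omp was 983 ± 149 FPKM (SD, n = 12) in MOE, 101 ± 12.5 FPKM in VNO and 35.1 ± 4.38 FPKM in OB. Cnga2 was 213 FPKM in MOE against 2.18 FPKM in VNO and 0.602 FPKM in OB. Trpc2 was 43.0 FPKM in VNO against 0.938 FPKM in MOE, and Gad1, which makes the transmitter GABA in bulb interneurons, was 180 FPKM in OB against 0.236 FPKM in MOE. Gnai2 and Vmn1r51 were likewise highest in VNO, and Th, Tbx21 and Slc17a7 in OB. Calb2, listed for bulb neurons, was 177 FPKM in VNO and 144 FPKM in OB. Meis2 and Gnao1, listed for vomeronasal neurons, were higher in OB (57.2 and 11.3 FPKM) than in VNO (11.9 and 4.85 FPKM). The third library of the CM group, CM3, had the fewest fragments as estimated from the MOE tables, 3016524 over all genes against 4153265 to 5902159 in the others. This estimate covers fragments assigned to genes and is no count of sequenced reads. In the paper's sequencing summary CM3 had the most input read pairs of the 12 MOE libraries and the lowest share of reads aligned. Its Omp level was 638 FPKM, the lowest of the 12, and its receptor levels are read with that value in view.

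The chromosome 9 genes fell into 2 clusters separated by 17.4 Mb with no member. The first, from Olfr24 to Olfr18 (chr9:18559136-20140538, mm9), held 35 members in 1.58 Mb. The second, from Olfr160 to Olfr986 (chr9:37518933-39995679), held 95 members in 2.48 Mb, with Olfr910 and Olfr912 among them. Neighbouring genes started a median of 24.6 kb apart. In the deposited files 109 of the 130 loci spanned under 1100 bases, with a median of 945 bases, close to the median coding length of 939 bases. The longest GENCODE transcripts of the same genes had a median of 2910 bases. For most members the level was therefore read from the coding part alone, and fragments from untranslated exons did not enter it.

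Many members are recent duplicates, and sequence decides how well their fragments can be told apart. Over the 130 coding sequences the median identity to the nearest Olfr gene of the chromosome was 88.8%, and 57 members had a relative at 90% identity or more. Cut into windows of 50 bases, the length of a read, 39 members shared no window with another gene, 91 shared at least 1, and 31 shared more than 20% of their windows. The highest share was 55.5%, in Olfr955 (chr9:39277365-39278309), whose coding sequence matches that of Olfr952 (chr9:39233710-39234654) at 98.1%. A stretch of 150 coding bases of that pair, starting at base 711 of each coding sequence (5′ to 3′, from the GENCODE transcripts), is shown to make visible how little separates them. Capitals mark the 5 bases that differ in the stretch, of 18 differences in 946 aligned positions.
Olfr952: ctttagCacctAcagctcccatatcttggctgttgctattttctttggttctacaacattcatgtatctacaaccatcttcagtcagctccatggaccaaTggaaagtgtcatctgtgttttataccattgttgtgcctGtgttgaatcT
Olfr955: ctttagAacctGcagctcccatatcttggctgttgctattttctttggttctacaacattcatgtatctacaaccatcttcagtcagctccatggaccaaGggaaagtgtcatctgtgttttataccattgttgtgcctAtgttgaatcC

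Receptor promoters are known for AT-rich sequence with sites for homeodomain factors such as Lhx2 and Emx2, and for Ebf factors. RefSeq promoter windows (GRCm38.p6) were found for 106 members, and 39 windows of members had an annotated start ahead of the ATG. In the 250 bases before the start, the homeodomain-type letters TAATNA, on either strand, occurred in 79.5% of those 39 windows, in 64.7% of 218 windows of Olfr genes outside chromosome 9 and in 24.3% of all 32851 promoter windows. The median AT content of the same 3 sets was 65.6%, 63.2% and 47.6%. The palindrome CCCNNGGG, the core letters of an Ebf site, occurred in 5.1%, 7.8% and 11.8% of them. The other 68 windows of members start at the ATG, so the bases before it need not be promoter. TAATNA occurred in 61.8% of these 68, and their median AT content was 67.6%. The frequency of these letters is therefore not particular to windows with a start ahead of the ATG. The last 150 bases before the start are shown for the 4 members with the highest MOE level among those with an annotated start ahead of the ATG. Ahead can mean by a few bases. The file locus of Olfr160 spans 933 bases against 930 coding bases, and those of Olfr845 and Olfr846, also among the 39 windows, 942 against 939. The bases before such starts need not be promoter either. For all 4 members shown the longest GENCODE transcript exceeds the file locus. The lengths are 4233 against 3065 bases for Olfr868, 3492 against 933 for Olfr160, 4003 against 1065 for Olfr878 and 4120 against 3267 for Olfr921. Whether transcription begins at the annotated starts was not tested. Capitals mark TAATNA or its reverse complement, and overlapping matches run together.
Olfr868 (chr9:20098476-20098625, + strand): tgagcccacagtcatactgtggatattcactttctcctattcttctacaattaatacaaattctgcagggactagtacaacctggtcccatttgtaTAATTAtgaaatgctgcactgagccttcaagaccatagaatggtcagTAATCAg
Olfr160 (chr9:37712281-37712430, − strand): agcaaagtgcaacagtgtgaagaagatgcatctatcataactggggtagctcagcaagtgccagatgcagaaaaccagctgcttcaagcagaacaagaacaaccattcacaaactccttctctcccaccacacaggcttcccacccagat
Olfr878 (chr9:37918398-37918547, + strand): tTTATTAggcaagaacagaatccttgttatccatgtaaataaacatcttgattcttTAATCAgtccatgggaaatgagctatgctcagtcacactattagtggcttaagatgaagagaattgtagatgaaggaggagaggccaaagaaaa
Olfr921 (chr9:38772938-38773087, + strand): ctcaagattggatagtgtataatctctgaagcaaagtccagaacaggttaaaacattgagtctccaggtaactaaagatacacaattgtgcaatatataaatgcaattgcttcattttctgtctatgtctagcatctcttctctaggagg
Olfr868 and Olfr878 held 2 matches each in these 150 bases, and Olfr160 and Olfr921 held none. A match is only a match of letters and says nothing about binding.

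The question of level was asked first: how strongly does the MOE transcribe these genes. Members were low. The mean over the 12 MOE libraries had a median of 0.348 FPKM over the 130 members, with quartiles of 0.108 and 0.829 FPKM. The 973 Olfr genes outside chromosome 9 had a median of 0.680 FPKM and reached 48.6 FPKM, while the highest member reached 5.18 FPKM. Of the 130 members, 6 were listed at 0 in all 12 MOE libraries, 25 were above 0 and below 0.1 FPKM, 49 lay from 0.1 to below 0.5 FPKM, 26 from 0.5 to below 1 FPKM, 23 from 1 to below 5 FPKM and 1 above that. Among the other Olfr genes 34.02% lay from 1 to below 5 FPKM, against 17.7% of members, and 4.11% lay at 5 FPKM or more, against 0.769%. Both sets share their libraries and depth, so these shares describe the same 12 libraries.

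**Figure D1:**
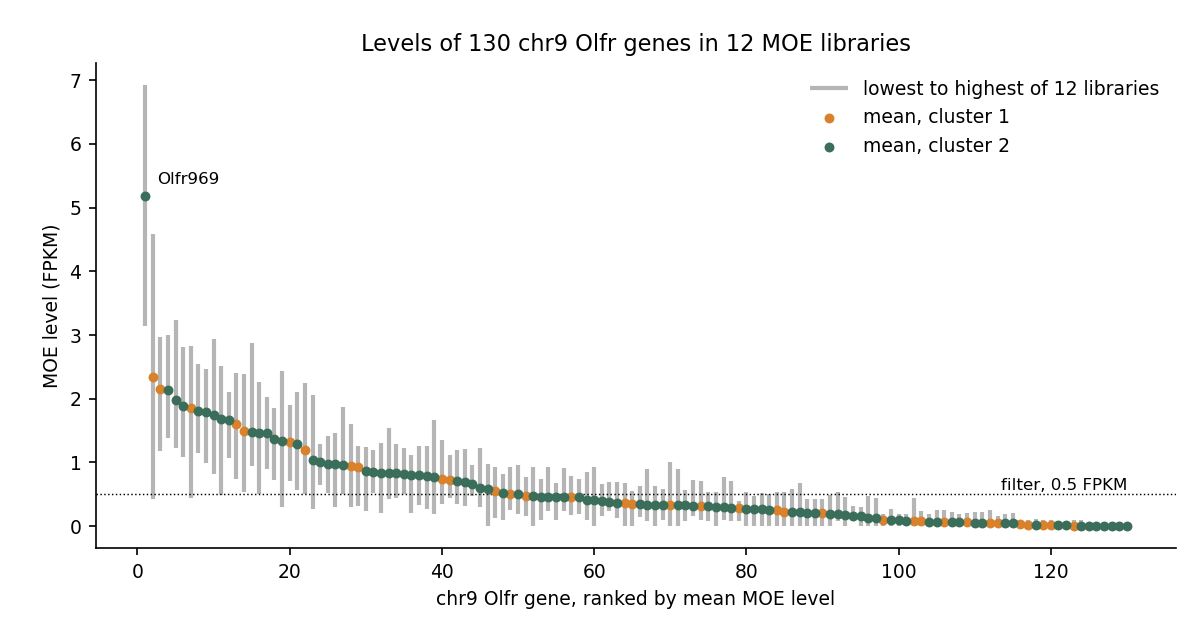
Mean MOE level of each of the 130 chromosome 9 Olfr genes (points, FPKM, coloured by cluster) in order of rank, with the lowest to highest of 12 libraries as grey lines; the dotted line is the 0.5 FPKM minimum of the group tests. Olfr969 stands at 5.18 FPKM, the next gene at 2.35 FPKM, and 80 genes lie below the line.

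A few members carried much of the RNA, and the other Olfr genes were uneven too. Of the 973 Olfr genes outside chromosome 9, the 10 highest made up 16.9% of their summed level and those below the median 9.25%. The 10 highest members made up 29.4% of the summed level, and the lower-ranked 65 members made up 12.2%. Olfr969 (chr9:39602962-39603897) led with 5.18 ± 1.18 FPKM (SD, n = 12) and 6.66% of the summed level. Its 12 libraries ran from 3.15 FPKM in SF2 to 6.93 FPKM in SM1, and its median was 57.0 fragments per library. Its coding sequence is 92.5% identical to that of Olfr970, and 11.3% of its windows recur in another gene. Olfr868 (chr9:19903070-19906134) followed with 2.35 ± 1.08 FPKM, from 0.429 FPKM in CM3 to 4.59 FPKM in SF1. Olfr849 had 2.15 ± 0.578 FPKM, Olfr923 2.14 ± 0.453 FPKM and Olfr957 1.98 ± 0.614 FPKM. The ranges of these 4 genes overlapped, so the order among them is within their spread. Olfr250, Olfr835, Olfr160, Olfr924 and Olfr878 completed the leading 10, at 1.75 to 1.88 FPKM. Olfr160, also called M72, is a receptor widely used to study axon targeting and is activated by acetophenone.

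The members listed at 0 in every MOE library were Olfr883, Olfr891, Olfr908, Olfr936, Olfr945 and Olfr952. At the median worth of a fragment, 3 fragments equal 0.247 to 0.304 FPKM in an MOE library, so a count of 0 in a single library leaves room for a level up to that range. Olfr908 and Olfr952 share 7.81% and 51.9% of their windows with other genes, while Olfr891 shares none. The annotated coding lengths of Olfr908 and Olfr936, 932 and 937 bases, do not divide into whole codons. Olfr891 and Olfr936, at 0 in MOE, were above 0 in 4 and 3 of the 12 VNO libraries, with at most 1.99 fragments in a library.

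Levels showed little order by position. Cluster 1 held 25.9% of the summed level with 35 members and a median of 0.330 FPKM, and cluster 2 held 74.1% with 95 members and a median of 0.368 FPKM. The level of a gene and that of the next along the chromosome had a Spearman correlation of -0.067 over 128 neighbouring pairs, given as a description since these genes share libraries. Olfr969 stood between neighbours well below it. Members without a shared window had a median of 0.549 FPKM (39 genes), those sharing up to 20% of windows 0.324 FPKM (60 genes) and those sharing more 0.284 FPKM (31 genes). Genes with a file locus of 1100 bases or more had a median of 0.510 FPKM (21 genes), against 0.330 FPKM for the shorter ones (109 genes). The part of sequence sharing and of the gene model in these levels was not tested.

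**Figure D2:**
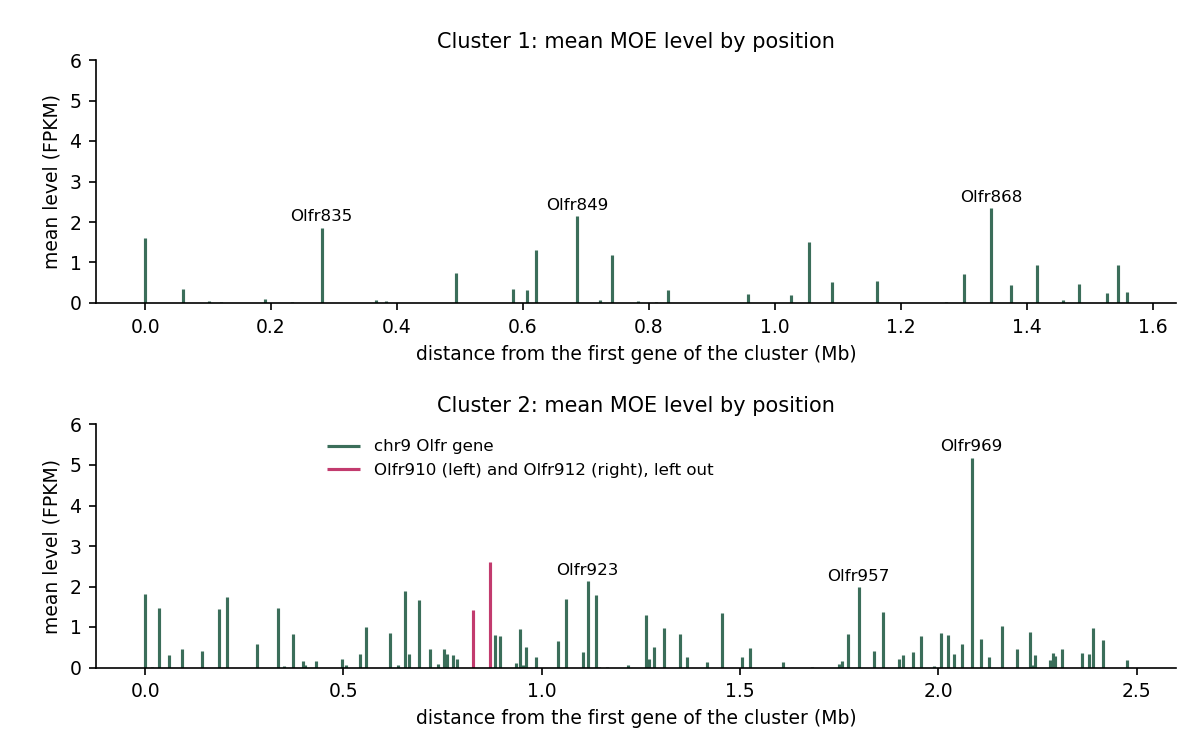
Mean MOE level (FPKM, bars) against the distance in Mb from the first gene of each cluster, cluster 1 above and cluster 2 below; red bars are Olfr910 and Olfr912, which are not among the 130 genes. High and low genes alternate along both clusters, and Olfr969 rises above the rest at 5.18 FPKM.

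Close relatives differed widely in level. Olfr160 and Olfr151, the M72 and M71 receptors, are 96.7% identical in coding sequence and lie in the same cluster. The annotated coding length is 930 bases for Olfr160 and 929 for Olfr151, and the latter does not divide into whole codons. Whether the reading frame of Olfr151 is intact was not tested. Olfr160 had 1.81 ± 0.455 FPKM, and Olfr151 had 0.0127 ± 0.0297 FPKM (SD, n = 12). Over the 12 libraries this was 223 fragments against 2, a ratio of 111.5 with an exact 95% counting interval of 30.5 to 926. Olfr924 had 1.79 ± 0.50 FPKM and Olfr926, 96.1% identical, 0.0172 ± 0.0401 FPKM, or 219 fragments against 2 (ratio 109.5, interval 29.95 to 910). Olfr933 had 148 fragments and Olfr26, 94.9% identical, had 1 (ratio 148, interval 26.2 to 5885). Olfr870 and Olfr871, at 97.55% the second closest pair, had 0.932 and 0.0766 FPKM, or 114 fragments against 12 (ratio 9.50, interval 5.23 to 18.9). In 12 of 12 libraries Olfr870 was above Olfr871.

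Another pair lay close together. Olfr869 and Olfr872, 95.4% identical, had 0.457 and 0.478 FPKM (66 and 80 fragments, the latter over the former 1.21, interval 0.864 to 1.71), a difference within counting error. In the closest pair of all, Olfr952 was listed at 0 while Olfr955 had 0.170 ± 0.139 FPKM from 22 fragments. In such pairs a fragment that fits both genes can be given to either, so the lower member of each pair is uncertain. The intervals cover counting error only, since fragments carried no molecular identifiers.

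**Figure D3:**
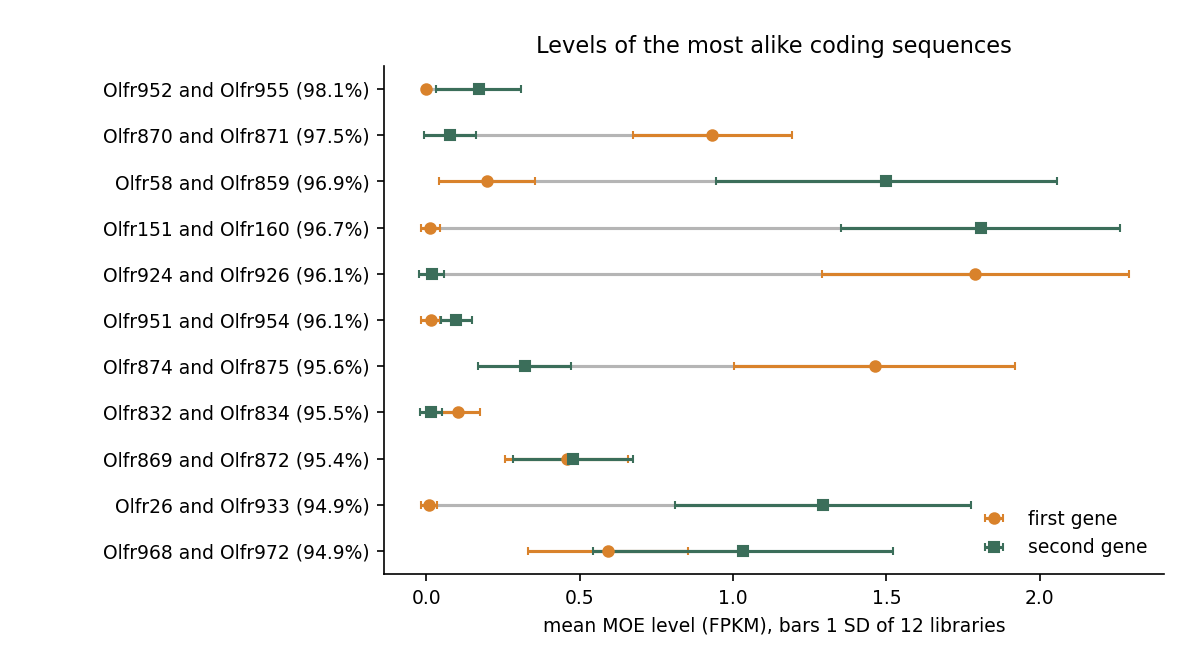
Mean MOE level (FPKM, bars 1 SD of 12 libraries) of both genes in the 11 pairs of chromosome 9 Olfr genes with the most alike coding sequences, with their identity in brackets. Olfr151, Olfr926 and Olfr26 lie near 0 while their partners lie at 1.29 to 1.81 FPKM, and Olfr869 and Olfr872 overlap.

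Variation between libraries set how small a difference could be seen. Over all members the median value was 4.0 fragments per gene and library. For the 24 members with a mean of at least 1 FPKM, the coefficient of variation over the 12 MOE libraries had a median of 31.4%, and counting error alone would give a median of 25.9%. The ratio of observed to counting variation had a median of 1.24 and was 1 or less in 4 of the 24. Olfr147 varied least (19.1%, counting error 21.1%), followed by Olfr923 (21.2%) and Olfr969 (22.7%). Olfr972 varied most (47.4%, counting error 33.2%), followed by Olfr868 (46.0%, counting error 22.1%) and Olfr943 (44.5%, counting error 27.8%). The 371 Olfr genes outside chromosome 9 with a mean of at least 1 FPKM had a median coefficient of 27.9%.

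The summed level was compared between groups next. The 130 members together had 83.2 ± 18.3 FPKM in SF, 79.2 ± 3.80 in SM, 73.1 ± 2.11 in CF and 75.8 ± 26.8 in CM (SD, n = 3). The 3 SF libraries stood at 99.0, 63.2 and 87.4 FPKM and the 3 CM libraries at 93.7, 88.6 and 45.0 FPKM, so the groups overlapped. Without CM3 the CM mean was 91.1 FPKM. Omp moved with the sum: SF2 (758 FPKM) and CM3 (638 FPKM) were the lowest in both. Relative to Omp the summed level was 8.36 ± 0.539% in SF, 7.67 ± 0.250% in SM, 7.32 ± 0.625% in CF and 8.28 ± 1.16% in CM. The share of all Olfr RNA held by the members was steadier, from 4.73% to 5.66% over the 12 libraries. It was 5.55 ± 0.188% in SF, 5.32 ± 0.0509% in SM, 5.08 ± 0.210% in CF and 5.05 ± 0.287% in CM. The lowest SF library (5.34%) stood above the highest CF (5.29%) and CM (5.30%) libraries, and below the highest SM library (5.36%). No test was run on these sums.

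**Figure D4:**
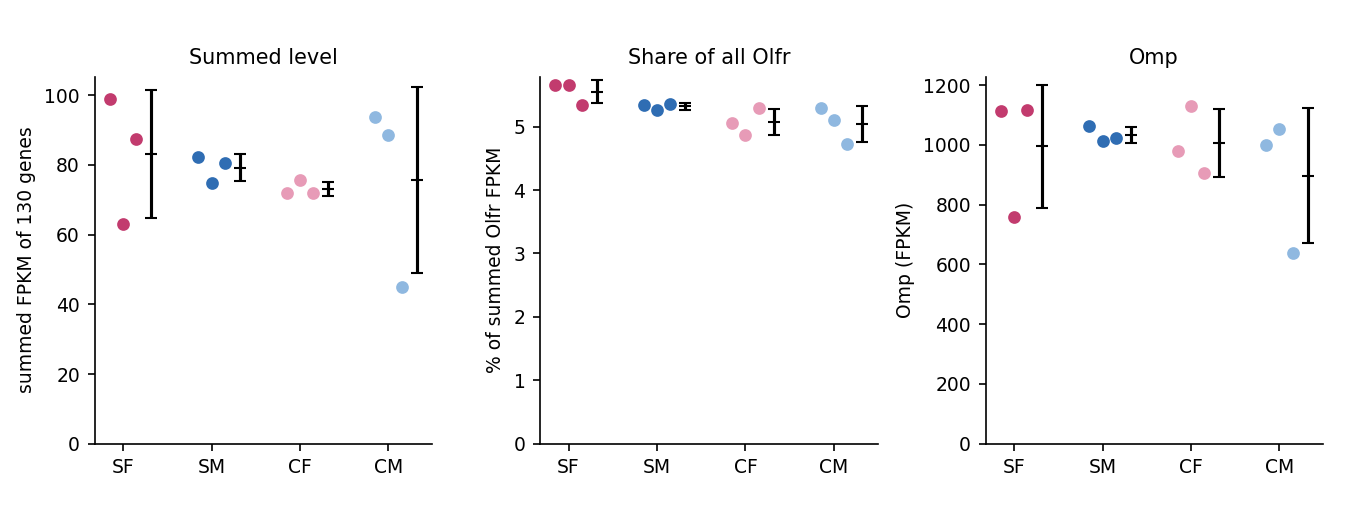
Panels by group for the 12 MOE libraries (points; black bars are mean ± SD, n = 3): summed FPKM of the 130 genes, their share of the summed FPKM of all Olfr genes in percent, and Omp in FPKM. SF2 and CM3 are low in both the sum and Omp, while the share stays between 4.73% and 5.66%.

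Single genes were then tested for sex and housing. With a minimum mean of 0.5 FPKM, 50 of the 130 members entered the MOE test among 13757 genes; the other 80 were too low. Levels were compared as log2(FPKM + 0.5) with limma and Benjamini-Hochberg adjustment over all genes, so changes are on that scale and understate those of low genes. No member passed an adjusted p of 0.05 in any of the 7 comparisons. The share of all tested genes that passed was 0.102% for the sex difference under sex-separated housing, 0.0436% for that under sex-combined housing and 0.0363% for the interaction of sex and housing. It was 0.0509% for housing in females, 0.0654% for housing in males, 0.0727% for sex averaged over housings and 0.102% for housing averaged over sexes. At an unadjusted p under 0.05, limma counted 5, 2, 4, 3, 4, 3 and 3 of the 50 members in the same order. These are 10%, 4%, 8%, 6%, 8%, 6% and 6%, against 4.16%, 1.75%, 4.59%, 2.04%, 6.94%, 1.86% and 3.31% of all genes. The 583 tested Olfr genes outside chromosome 9 had 9.26%, 4.12%, 6.69%, 5.32%, 7.55%, 8.06% and 4.29%, so such shares were not particular to the members. The median SE of a member was 0.249 for a contrast of 2 groups, above the median of 0.2005 over all genes, so a difference of that order was not detectable at this depth. The genes named next are the 3 with the smallest p in each comparison. Their p-values were the smallest of 50, and none withstood adjustment over all genes.

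**Figure D5:**
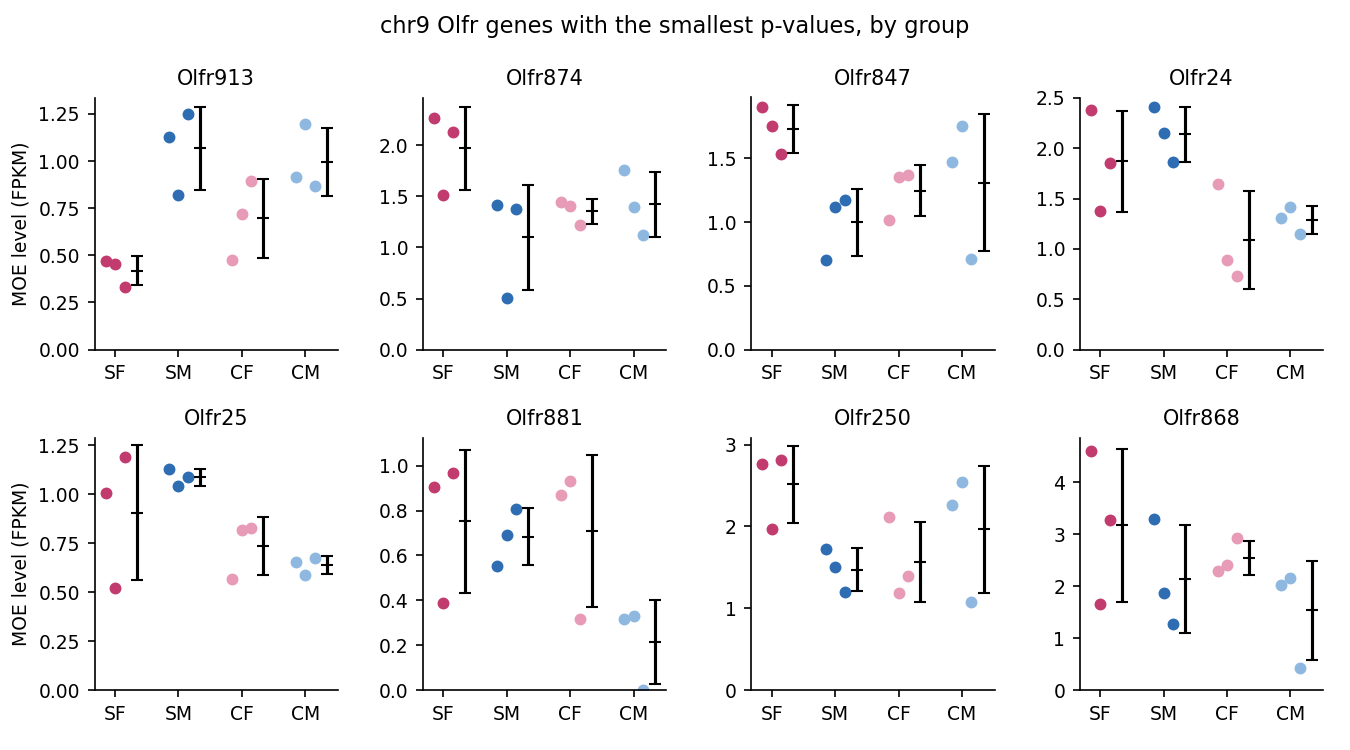
MOE level (FPKM) in each library (points) of 8 chromosome 9 Olfr genes that had among the smallest p-values in at least 1 of the 7 comparisons, by group, with mean ± SD (n = 3) in black. In Olfr913 the 3 SF libraries (0.331 to 0.470 FPKM) lie below the 3 SM libraries (0.820 to 1.25 FPKM), and in Olfr24 the 3 SM libraries lie above the 3 CM libraries; no gene passed an adjusted p of 0.05.

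Between SF and SM mice, Olfr913 gave the smallest p (chr9:38400388-38402746). Its 3 SF libraries held 0.470, 0.454 and 0.331 FPKM and its 3 SM libraries 1.13, 0.820 and 1.25 FPKM, from 6.00 to 22 fragments per library. Every SM library stood above every SF library. The log2 change, SF over SM, was -0.76 ± 0.19 (SE; limma, unadjusted p = 0.000722, adjusted p = 0.318), with a 95% interval from -1.16 to -0.37. Averaged over both housings it was -0.55 ± 0.13 (limma, adjusted p = 0.463). In CF mice the gene had 0.696 ± 0.212 FPKM and in CM mice 0.995 ± 0.178 FPKM (SD, n = 3), and those libraries overlapped. Leaving out each library in turn kept the first change between -0.88 and -0.68. Olfr913 shares no 50-base window with another gene.

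Olfr874 and Olfr847 lay the other way, higher in SF. Olfr874 had 2.27, 1.51 and 2.13 FPKM in SF and 1.42, 0.505 and 1.37 FPKM in SM, without overlap. Its change was 0.67 ± 0.23 (limma, adjusted p = 0.896), and it was 0.37 without SM2, its lowest library. Olfr847 had 1.90, 1.75 and 1.53 FPKM in SF against 0.700, 1.12 and 1.17 FPKM in SM, again without overlap, with a change of 0.59 ± 0.22 (limma, adjusted p = 1). Both share windows with relatives (16.3% and 10.1%), and Olfr874 is 95.6% identical to Olfr875. Over all 50 members the median change was 0.01, and 26 of 50 lay above 0, against a median of -0.02 over all genes.

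Housing gave its smallest p in Olfr24 (chr9:18559136-18560077), the first gene of cluster 1. It had 2.38, 1.38 and 1.86 FPKM in SF, 2.41, 2.15 and 1.86 FPKM in SM, 1.64, 0.891 and 0.732 FPKM in CF and 1.30, 1.42 and 1.14 FPKM in CM. All 3 SM libraries stood above all 3 CM libraries, whereas SF2 lay below the highest CF library. Averaged over sexes the change, separated over combined, was 0.58 ± 0.15 (limma, unadjusted p = 0.00111, adjusted p = 0.462), with a 95% interval from 0.27 to 0.89. It was 0.60 ± 0.21 in females and 0.56 ± 0.21 in males. All tested genes had a median change of 0.12 in the averaged comparison, 0.06 in females and 0.17 in males, and the members 0.09, 0.10 and 0.10. Scalings and libraries left out kept the averaged change of Olfr24 between 0.46 and 0.73. Its coding sequence shares no window with another gene.

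Olfr25, in cluster 2, had 0.905 ± 0.345 FPKM in SF, 1.09 ± 0.0446 in SM, 0.736 ± 0.147 in CF and 0.639 ± 0.0444 in CM. Its housing change was 0.48 ± 0.19 in males (limma, adjusted p = 0.699) and 0.32 ± 0.13 averaged over sexes (limma, adjusted p = 0.791). Olfr881 was set apart by CM: its CM libraries held 0.315, 0.332 and 0 FPKM, the last of them CM3, against 0.552 to 0.807 FPKM in SM and 0.317 to 0.933 FPKM in CF. Its change was 0.76 ± 0.26 for housing in males (limma, adjusted p = 0.667) and 0.75 ± 0.26 for sex under combined housing (limma, adjusted p = 1). These rest on 0 to 9.59 fragments per library, and leaving out a library moved the former from 0.52 to 0.89. In females Olfr843 lay the other way from Olfr24, with 0.468 ± 0.134 FPKM in SF and 1.04 ± 0.451 FPKM in CF, a change of -0.63 ± 0.26 (limma, adjusted p = 1).

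For the interaction, the sex difference under separation minus that under combined housing, Olfr250, Olfr860 and Olfr963 had the smallest p-values. Olfr250 (chr9:38175133-38176128) had 2.76, 1.97 and 2.81 FPKM in SF, above its SM libraries at 1.72, 1.5 and 1.19 FPKM. Its CF libraries held 2.12, 1.19 and 1.40 FPKM and its CM libraries 2.26, 2.55 and 1.08 FPKM, which overlapped. The interaction was 0.83 ± 0.33 (limma, adjusted p = 0.999), and its SF over CF change was 0.56 ± 0.24 (limma, adjusted p = 1). Olfr860 gave 0.77 ± 0.32, and Olfr963 -0.75 ± 0.32 (limma, adjusted p = 0.999 for both). Olfr868, the second highest member, had 3.17 ± 1.47 FPKM in SF, 2.15 ± 1.04 in SM, 2.54 ± 0.332 in CF and 1.53 ± 0.956 in CM. Averaged over housings its female over male change was 0.59 ± 0.26 (limma, adjusted p = 1), and leaving out a library moved it from 0.34 to 0.76.

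The members next to Olfr910 and Olfr912 were read beside them, since these 2 genes had the smallest p-values among the tested chromosome 9 Olfr genes in the SF over CF and interaction comparisons. Neither gene passed an adjusted p of 0.05 there. For SF over CF it was 0.134 in Olfr912 and 0.135 in Olfr910, and for the interaction 0.128 and 0.628 (limma). Olfr912 had 4.03 ± 0.559 FPKM in SF and 1.77 ± 0.231 FPKM in SM (limma, change 0.997 ± 0.185, adjusted p = 0.0499), and Olfr910 had 2.2 ± 0.448 and 1.17 ± 0.109 FPKM (limma, change 0.68 ± 0.17, adjusted p = 0.359). Olfr913 starts 12.6 kb beyond the start of Olfr912 and had its lowest level in SF, the group where both neighbours were highest. Across the 4 groups Olfr912 ran from SF through CM (2.66 ± 0.650 FPKM) and CF (1.91 ± 0.367 FPKM) down to SM. Olfr914, 26.2 kb away, had 1.01 ± 0.446 FPKM in SF, 0.735 ± 0.137 in SM, 0.530 ± 0.322 in CF and 0.799 ± 0.773 in CM. Like Olfr912 it was highest in SF, but its libraries overlapped between all groups, and its SF over SM change was 0.25 ± 0.34 (limma, adjusted p = 1). Olfr906 had 0.372 ± 0.180 FPKM in SF, 0.230 ± 0.125 in SM, 0.297 ± 0.206 in CF and 0.324 ± 0.281 in CM, the same order of group means as Olfr912 but with libraries that overlapped between all groups. Olfr907 and Olfr915 had mean levels of 0.215 and 0.101 FPKM, and Olfr908 was listed at 0; these 3 and Olfr906 lay below the minimum for the test. Whether the group differences of any of these genes differed from those of Olfr912 was not tested.

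Genes that act in receptor choice, transcription and trafficking were read as a list of 12 (Lhx2, Ldb1, Emx2, Ebf1, Ebf2, Ebf3, Ebf4, Kdm1a, Atf5, Rtp1, Rtp2 and Ric8b). None of the 12 passed the adjusted p of 0.05 in any of the 7 MOE comparisons (limma), and at an unadjusted p under 0.05 only Atf5 was counted, in 2 of them. Atf5, a factor of the response through which a first receptor is stabilised, had an SF over SM change of -0.74 (limma, unadjusted p = 0.0182, adjusted p = 1). None of the 10 markers of mature neurons passed at an unadjusted p under 0.05. Their summed level ran from 1610 to 2869 FPKM over the 12 MOE libraries. Of the other marker lists, 5 genes of immature neurons, 5 of supporting cells, 4 of basal cells and 4 of vomeronasal neurons were tested in MOE. From the list of bulb neurons only 1 gene, Calb2, reached the minimum, so nothing is read for that list. None of these tested genes was called in MOE, at the adjusted or the unadjusted p.

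Outside the MOE the chromosome 9 receptors were present only in traces. Both other tissues list 128 of the 130; Olfr250 and Olfr251 were analysed in MOE only. The 128 had 1.20 ± 0.496 FPKM in sum in VNO and 0.558 ± 0.233 FPKM in OB (SD, n = 12), against 75.6 FPKM in MOE, which is 1.58% and 0.738% of the MOE value. The other Olfr genes stood at 2.12% and 1.40%, and Omp at 10.3% and 3.57%. Cnga2 fell further than Omp, from 213 FPKM in MOE to 2.18 FPKM in VNO and 0.602 FPKM in OB. The VNO holds neurons of its own, and their part in its Omp level was not tested. All 12 VNO libraries together held 235 fragments of members and all 12 OB libraries 99.96, against 10566 in MOE for the same 128 genes. In VNO 50 members were listed at 0 in all libraries and in OB 76. Of 1536 values per tissue, 155 in VNO and 90 in OB were above 0, and 131 and 82 of those rested on a single fragment. Olfr969, the leading member in MOE, was above 0 in 1 of 12 VNO libraries (0.0671 FPKM in CM2) and in 2 of 12 OB libraries (0.0732 FPKM in SM2 and 0.0644 FPKM in CM1). With the minimum of 0.5 FPKM, members reach a test between tissues only through MOE, and no such test is read for them. Of all genes 82.6% passed it between MOE and VNO and 84.9% between MOE and OB, and with no minimum 70.5% and 72.6%.

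Olfr920 (chr9:38560381-38564448) was the exception in VNO. It was above 0 in 12 of 12 VNO libraries, with 0.042, 0.230 and 0.383 FPKM in SF, 0.295, 0.262 and 0.236 FPKM in SM, 0.360, 0.108 and 0.219 FPKM in CF and 0.181, 0.167 and 0.153 FPKM in CM. These rest on 1.0 to 11.9 fragments per library and on 80.5 in all, which is 34.2% of the VNO fragments of all members. Its VNO mean of 0.220 ± 0.0985 FPKM was 33.1% of its MOE mean of 0.663 ± 0.138 FPKM. Without Olfr920 the summed VNO level of members was 1.30% of that in MOE. It was the only member to reach 3 fragments in a VNO library, and it shares 1.24% of its windows with another gene, the nearest being Olfr910 at 80.9% identity. In OB it held 9.99 fragments, in 5 of 12 libraries. Its locus spans 4068 bases, more than its coding sequence, and where in that span the fragments lie cannot be read from these tables.

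The next members in VNO were Olfr982, with 0.0463 FPKM and above 0 in 6 of 12 libraries, and Olfr891, with 0.0401 FPKM. In OB the highest were Olfr901 with 0.0356 FPKM, Olfr920 with 0.0263 FPKM and Olfr957 with 0.0248 FPKM, above 0 in 5, 5 and 4 of 12 libraries. At the median worth of a fragment 3 fragments equal 0.198 to 0.308 FPKM in a VNO library and 0.188 to 0.305 FPKM in an OB library, above all of these means. The 3 SF libraries of VNO held 2.0, 22 and 30.9 fragments of members in sum, SF1 being the lowest of the tissue, and the other VNO libraries 15 to 32. By the paper's sequencing summary SF1 also had the lowest share of reads aligned among the VNO libraries. No member reached the minimum for the test in VNO or OB. With no minimum, 78 members in VNO and 52 in OB were tested, and the smallest adjusted p of a member over the 7 comparisons was 0.488 and 0.764 (limma). Group differences of these genes in VNO and OB were thus not detectable at this depth.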

How the data were processed

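Stranded RNA-seq libraries of rRNA-depleted total RNA from MOE, VNO and OB (12 each) were analysed from the gene tables as deposited. Per the submitters' processing notes the authors used TopHat2 (2.1.0), Cufflinks (2.2.1.0) and Cuffdiff on mm9, and the deposited FPKM values of RefSeq entries carry 95% limits, which gave each value's fragment estimate, (FPKM/SE) squared; 89.4% of member values above 0 came within 0.1 of a whole fragment. Entries were named through RefSeq and GENCODE M21 (99.73% matched) and summed by symbol. Genes with a mean of at least 0.5 FPKM were tested as log2(FPKM + 0.5) with limma 3.58.1 (R 4.3.3), in 4 groups per tissue and, between tissues, in 36 libraries. The main fit between tissues did not model mice shared by tissues. The test was checked on simulated data. Alternatives covered pseudocount, filter, scaling, library weights, replicate block and libraries left out. Coding identity replaced the planned protein identity, since no protein table was used here. Named genes followed a fixed rule: the highest, most and least variable members, the 3 smallest p-values per comparison, neighbours of Olfr910 and Olfr912, members at 0 and the 2 closest pairs; further pairs were chosen after their values were seen. Members and lists were chosen with earlier results of these data known.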

Additional observations from a re-analysis of the deposited data

How the results depend on the processing

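Refits of VNO and OB that kept the minimum mean of 0.5 FPKM tested 0 members and could call none. Counted once per comparison and setting within a tissue, 415 of 418 results called no chromosome 9 Olfr gene. The 415 include the VNO and OB results that tested 0 members, so this number does not measure how firm the result is. The 3 exceptions were comparisons of a single MOE refit, the one with library weights. It called 9 members for sex under sex-separated housing, 8 for the interaction and 8 for housing in females. Beside them it called 1813, 2420 and 2225 of all 13757 genes. The weights ran from 0.0503 for CM3 to 5.64 for SF1, and SF1 belongs to the SF group that enters all 3 comparisons; the cause was not tested. Under all other MOE settings the smallest adjusted p of a member was 0.0718 (limma). Between tissues, 49 of 49 members passing the minimum were called in both comparisons (82.6% and 84.9% of all genes). With no minimum, 115 of 127 members were called between MOE and VNO, 113 higher and 2 lower in MOE (70.5% of all genes called). Between MOE and OB 114 of 127 were called, 114 of them higher in MOE (72.6% of all genes called). More members were then tested, some of them at 0 in every MOE library. Most members still reach this test through MOE, so nothing is read from these counts. The changes of the 3 members with the smallest p in each MOE comparison kept their direction in each setting run. Within a tissue, the deviations of same-numbered libraries correlated above 0.1 in 3 of 18 pairs in MOE, 8 of 18 in VNO and 2 of 18 in OB. The numbers were therefore not taken to pair the samples within a tissue. With the replicate block 0 members were called in MOE, with a smallest adjusted p of 0.229 (limma). Leaving out each library in turn gave 0 calls of members in MOE. Depth limits the reading: a member had a median of 4.0 fragments in an MOE library.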
